A study of Mus musculus with 2 samples.

Results

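The 10 genes described here handle the uptake, storage, export and sensing of iron in the cell. They were taken by symbol from the deposited count tables, and all 10 of 10 were found there, among 23238 distinct symbols. Transcript 3′ ends were counted in 3T3-L1, a fibroblast line from mouse that forms fat cells when induced and whose cells the labels call adipocytes. A single library came from cells given control siRNA, and another from cells given siRNA that targets Pink1, the gene of a kinase that flags damaged mitochondria for clearance. The question, by the title of the series, bears on bone loss with age. Not given in the sources used here were the siRNA sequence, the interval between transfection and harvest, and how long the cells had been differentiated. None of the 10 genes differed by 2-fold between the libraries, and their ratios of Pink1 siRNA to control siRNA ran from 0.876 for Slc11a2 to 1.20 for Ireb2.

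Iron bound to transferrin enters cells through the transferrin receptor, is reduced in the endosome and leaves it through a divalent metal transporter. What is not used at once is stored in ferritin, a hollow shell of heavy and light chains, or leaves the cell through ferroportin. Cells sense iron through iron regulatory proteins, which bind a hairpin in certain transcripts, the iron-responsive element, when iron is scarce. Bound in a 5′ UTR the protein blocks translation, as in ferritin, and bound in the 3′ UTR of the transferrin receptor transcript it slows its decay. Iron is used largely in mitochondria, for haem and iron-sulphur clusters, and fat cells take up iron as they mature.

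The hairpins are shown because they are the regulated element. Their place is given because the reads come from transcript 3′ ends, and none of the sites lies at the annotated end of its transcript. The letters searched were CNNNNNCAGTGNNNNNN on the sense strand of annotated protein-coding transcripts (GENCODE M21, build GRCm38, the assembly behind mm10). The 5 bases before the loop had to pair with the last 5, with G-U pairs allowed, and the last loop base could not be G. Elements with a bulge in this stem, for which the 3′ UTR of Slc11a2 is known, are not found by such a search. Of the 10 genes 4 had such a match in a UTR. Among all 21877 protein-coding genes searched, 0.105% had one in a 5′ UTR and 0.457% in a 3′ UTR. The 10 genes were chosen for iron handling and include known carriers of the element, so this contrast was fixed beforehand and is not a result. Each site is printed 5′ to 3′ as 30 bases of the transcript, written as DNA, with the 6 loop bases in capitals.
Fth1, 5′ UTR: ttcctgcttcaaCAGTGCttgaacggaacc
Ftl1, 5′ UTR: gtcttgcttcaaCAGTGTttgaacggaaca
Slc40a1, 5′ UTR: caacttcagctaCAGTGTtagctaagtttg
Tfrc, 3′ UTR, site 1: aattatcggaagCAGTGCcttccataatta
Tfrc, 3′ UTR, site 2: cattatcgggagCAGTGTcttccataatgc
Tfrc, 3′ UTR, site 3: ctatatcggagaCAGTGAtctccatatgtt
Tfrc, 3′ UTR, site 4: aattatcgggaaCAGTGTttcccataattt

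The sites of the ferritin heavy chain gene Fth1 and the light chain gene Ftl1 were identical at 26 of 30 bases, and each of them matched that of the ferroportin gene Slc40a1 at 13. In mm10 the Fth1 site lies on the plus strand at chr19:9982732-9982761, the Ftl1 site on the minus strand at chr7:45459778-45459807 and the Slc40a1 site on the minus strand at chr1:45925464-45925493. The 4 sites of the transferrin receptor gene Tfrc lie on the plus strand at chr16:32631219-32631248, chr16:32631598-32631627, chr16:32631663-32631692 and chr16:32631710-32631739. Each lies within 1 exon. In transcript Tfrc-201, of 4890 bases, the loops are followed by 1558, 1179, 1114 and 1067 bases before the annotated end. After the loop of Fth1-201 there are 120 bases before the start codon, against 158 in Ftl1-201 and 212 in Slc40a1-201. Not every annotated coding transcript holds the site: it is in 4 of 5 for Fth1, 1 of 2 for Ftl1 and 1 of 4 for Slc40a1. Each Tfrc site is in 1 of 3. A letter match is a description of the annotated transcript. Binding of the regulatory proteins, ferritin protein and cellular iron were not measured in the data used here.

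**Figure D1:**
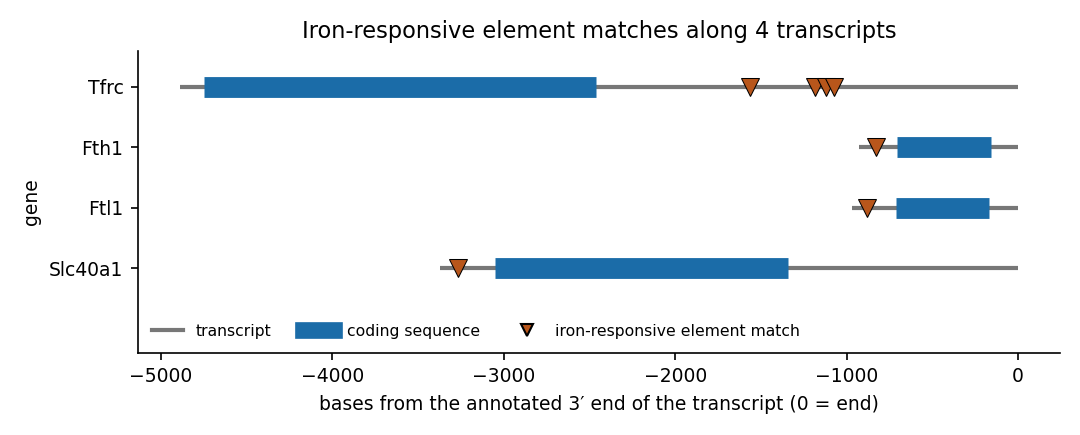
Position of the iron-responsive element matches (triangles) in transcripts of Tfrc, Fth1, Ftl1 and Slc40a1; the horizontal axis gives bases from the annotated 3′ end, which lies at 0, and thick bars are coding sequence. The 4 Tfrc matches lie behind the coding sequence and the single matches of the other genes lie in front of it.

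The control library held 13803174 counts and the Pink1 siRNA library 14214768. Levels are CPM, reads scaled to a common depth by effective library sizes that set aside differences in a minority of genes. Intervals of 95% cover counting error only, and with 1 library per group differences have no replicate check, so p-values were not computed. Genes with 40 or more reads over both libraries were taken as measured, and the rule of size called it higher or lower where the libraries differed by 2-fold or more and the counting interval did not include 1. A second, widened interval divides both counts by the excess spread between the libraries among genes of the same twentieth of mean level. This factor is a mean over the twentieth and grows with read depth. In the highest twentieth, which spans a wide range of levels, it was 128 for Fth1, Ftl1 and Pcbp1 alike. Widened intervals there are therefore not the spread of the single gene. Pink1 itself had 511 and 351 counts, a ratio of 0.687 with a widened interval of 0.445 to 1.05, so that it was lower than in the control library without passing the rule. Of 583 genes in the twentieth that holds Pink1, 46 had a ratio as far from 1.

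Adipocyte and preadipocyte transcripts were both present. The summed level of 8 adipocyte markers was 2420 CPM in the control library and 2580 CPM in the Pink1 siRNA library, and that of 7 preadipocyte and fibroblast markers was 27800 and 29000 CPM. These sums rest on a few abundant genes. Widened intervals left out 1 for 3 of the 7 (Dlk1, log2 0.16, Col1a1, 0.20, and Thy1, 0.55), against 4.10% of measured genes. They did so for 0 of the 8 adipocyte markers, where Plin1 had -0.72 and Retn 0.58. In the highest twentieth, 44.9% of genes lay as far from 1 as Dlk1 and 35.5% as far as Col1a1. For Thy1, in its own twentieth, this was 1.54%. Of the 7 ratios 6 were above 1, with Pdgfrb at a log2 of 0.00, and 1 was below, that of Col1a2 (-0.11), the marker with the highest level. Of 8 macrophage markers 3 had 0 counts in both libraries, Adgre1 among them, and the summed level was 20.3 and 16.1 CPM. Most of this sum was Cd14, at 15.9 and 12.8 CPM. Of 9 erythroid markers 3 had 0 counts in both libraries, and the summed level was 11.9 and 8.71 CPM. Most of that sum was Alas2 (5.14 and 4.43 CPM), which overlaps Apex2, and Epor (4.28 and 2.71 CPM). Hbb-bs and Hbb-b1 had the same 11 and 10 counts, so the same reads may be counted in both. In bulk RNA, fewer cells of a type and less RNA per cell cannot be told apart, and the part of the cell mixture in any value below was not tested.

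All 10 iron genes were measured and none passed the rule in either direction, while the rule took 1.63% of the 11660 measured genes as higher and 2.39% as lower. At a background of 4.02% in both directions together, a count of 0 among 10 does not set the group apart. The median log2 ratio of the 10 genes was 0.03, beside 0.00 over all measured genes. There were 6 ratios above 1 and 4 below, beside 5957 and 5703 over all measured genes. The counting interval left out 1 for 4 genes (Slc11a2, Fth1, Ftl1 and Ireb2), where it did so for 51.2% of measured genes. The widened interval included 1 for all 10, beside the 4.10% of measured genes for which it did not. Set beside the interquartile range of genes in the same twentieth, Ireb2 lay above it (log2 0.26, range -0.14 to 0.19) and Fth1 below it (-0.10, range -0.08 to 0.21), and Slc11a2 was at its lower edge (-0.19).

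**Figure D2:**
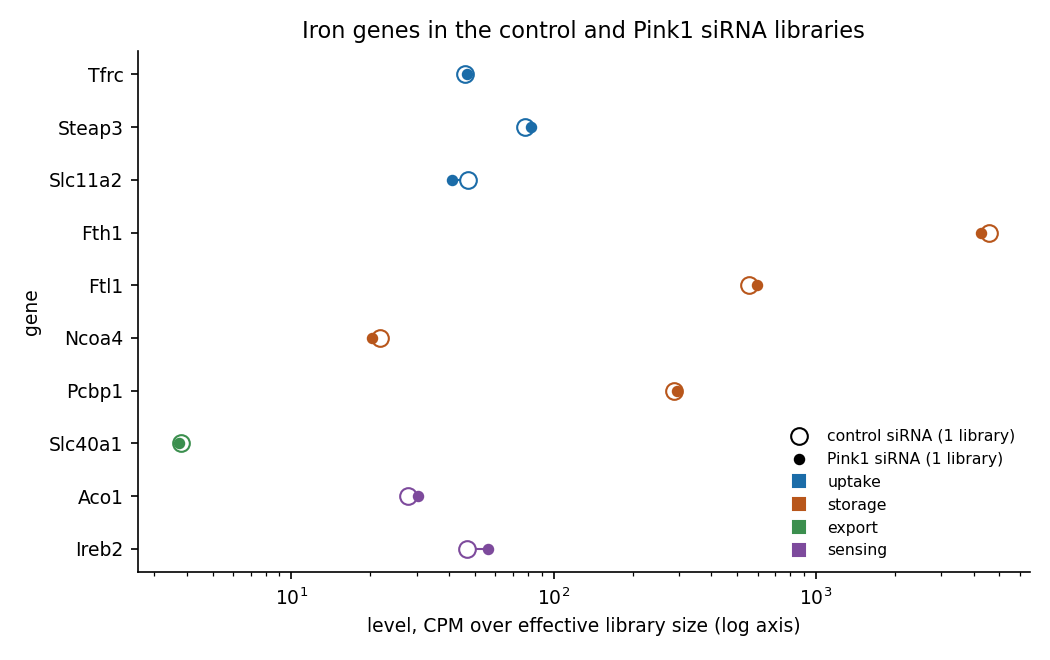
Level of each iron gene in CPM on a log axis, with the control siRNA library as an open circle and the Pink1 siRNA library as a filled one; colours mark the role of the gene. The 2 circles of a gene overlap or touch for most genes, and the widest gap is that of Ireb2.

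Of the 3 uptake genes, Tfrc and Steap3 had counting intervals that included 1 and Slc11a2 had one below 1. Tfrc, the receptor that takes up transferrin-bound iron (chromosome 16, 32608896 to 32632794), had 642 counts in the control library and 654 in the Pink1 siRNA library, or 45.8 and 46.7 CPM. The ratio of 1.02 had counting bounds of 0.912 and 1.14 and a widened interval of 0.704 to 1.47. The libraries thus gave nearly the same level, and 539 of the 583 genes in the twentieth of Tfrc lay at least as far from 1. Counted by total reads in place of effective sizes, its log2 ratio of 0.03 became -0.02, so no direction is given. Reads were counted per gene, so the counts do not show which share came from the transcript that holds the sites printed above.

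Steap3, the endosomal reductase that turns ferric into ferrous iron (chromosome 1, 120226414 to 120271081), had 1092 and 1148 counts. This is a level of 78.0 CPM in the control library and 82.0 CPM in the Pink1 siRNA library, and a ratio of 1.05 (counting interval 0.967 to 1.14, widened 0.769 to 1.44). The Pink1 siRNA value was the higher by less than the counting error.

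Slc11a2, the divalent metal transporter DMT1 that moves iron out of the endosome (chromosome 15, 100387898 to 100424209), was the member with the lowest ratio. It had 658 and 576 counts, or 47.0 and 41.1 CPM. The ratio of 0.876 had counting bounds of 0.781 and 0.981, which left out 1, and a widened interval of 0.607 to 1.26 that did not. In its twentieth of level 257 of 583 genes, or 44.1%, had a ratio as far from 1, so a difference of this size was common between these libraries. The gene has 6 annotated coding transcripts with 6 different ends, and the single row does not separate them. The search described above gave no UTR match in its annotated coding transcripts, which says nothing of elements with another shape.

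The ratios of the ferritin chains lay on opposite sides of 1, both close to it. Fth1, whose chain carries the ferroxidase site of ferritin (chromosome 19, 9980600 to 9985111), had 64358 counts in the control library and 59943 in the Pink1 siRNA library, which are 0.466% and 0.422% of all counts. The levels were 4590 and 4280 CPM and the ratio 0.931. The counting interval was narrow, at 0.921 to 0.942, because of the depth of this gene. In the highest twentieth of level, however, 389 of 583 genes lay as far from 1, and the widened interval was 0.820 to 1.06.

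Ftl1, the light chain that aids the formation of the iron core (chromosome 7, 45457944 to 45459886), had a ratio on the other side of 1. Its 7793 and 8358 counts gave 556 and 597 CPM and a ratio of 1.07, with a counting interval of 1.04 to 1.11 and a widened interval of 0.745 to 1.55. In the same twentieth 393 of 583 genes lay as far from 1. The last 300 bases of the longest Ftl1 coding transcript matched 11 other annotated genes at 95% identity or more over at least 50 bases, among them the pseudogenes Ftl1-ps1 and Ftl2-ps. None of the 11 has a row in the tables, and the sources used here do not give how reads that fit several places were counted, so the Ftl1 counts are uncertain. The other 9 iron genes had no such match.

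The balance of reads from the ferritin chain genes needs no scaling between libraries, but it shares the uncertainty of the Ftl1 counts given above. There were 8.26 reads of Fth1 for each read of Ftl1 in the control library and 7.17 in the Pink1 siRNA library. The quotient of these values was 0.868, with a counting interval of 0.840 to 0.897. Widened by the factor of the highest twentieth, which both genes share, the interval was 0.599 to 1.26 and included 1. Reads of Tfrc per 1000 reads of Fth1, a quantity that sets uptake beside storage, were 9.98 and 10.9. The quotient was 1.09, with a counting interval of 0.980 to 1.22. Per 1000 reads of Ftl1, those of Tfrc were 82.4 and 78.2, a quotient of 0.950 with a counting interval of 0.848 to 1.06. The side of 1 thus depended on the ferritin chain used. Of 7 such pairs of members computed, all 7 had a widened interval that included 1.

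Ncoa4, the receptor that carries ferritin to the lysosome for iron release (chromosome 14, 32159879 to 32179855), had 304 and 285 counts, or 21.7 and 20.3 CPM. The ratio of 0.938 had a counting interval of 0.795 to 1.11 and a widened interval of 0.579 to 1.51. Its control value was the higher by less than the counting error. Reads of Ncoa4 per 1000 reads of Fth1 were 4.72 and 4.75, a quotient of 1.01 with a counting interval of 0.856 to 1.18 and a widened interval of 0.629 to 1.61.

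Pcbp1, a chaperone that delivers iron to ferritin and also binds RNA (chromosome 6, 86524480 to 86526189), had 4043 and 4127 counts, or 289 and 295 CPM. The ratio of 1.02 had counting bounds of 0.977 and 1.07 and a widened interval of 0.605 to 1.72, and its log2 ratio of 0.03 became -0.01 with total counts. The related chaperone Pcbp2 had 7607 and 6803 counts, a log2 ratio of -0.16 and a widened interval of 0.606 to 1.32. Pcbp2 overlaps Map3k12, which itself had 6469 and 6171 counts, so its reads are uncertain.

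**Figure D3:**
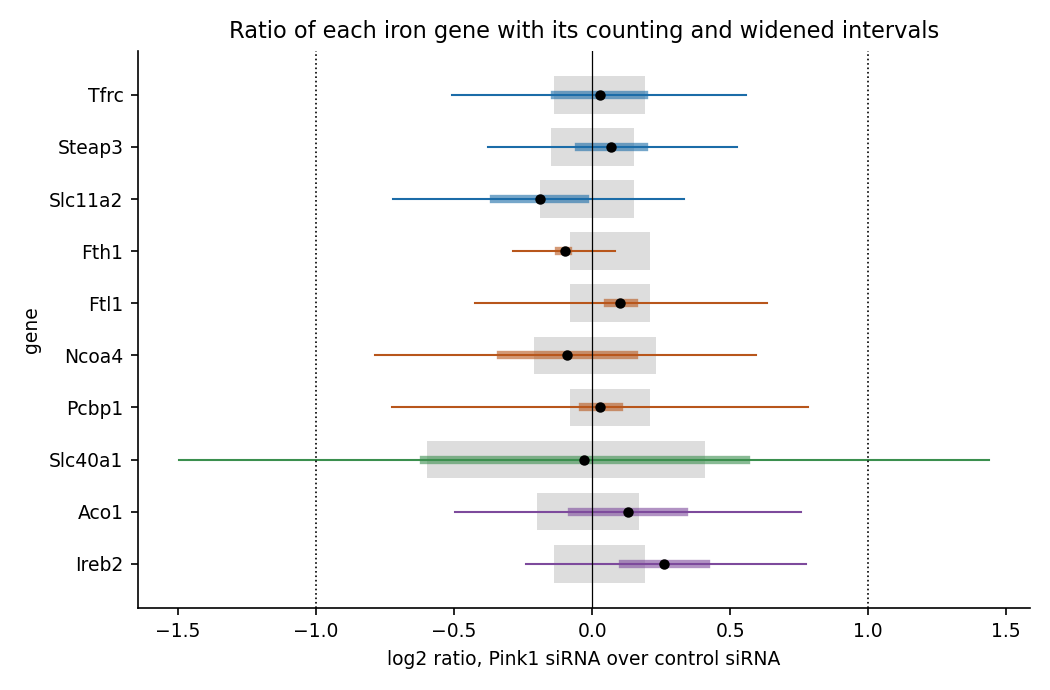
Log2 ratio of Pink1 siRNA to control siRNA for each iron gene (point) with its counting interval (thick bar) and widened interval (thin line); grey boxes give the interquartile range of all genes in the same twentieth of level, and dotted lines mark a 2-fold difference. Every widened interval crosses 0, and that of Slc40a1 is the widest.

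Slc40a1, ferroportin, the iron exporter of the cell (chromosome 1, 45908070 to 45926532), rested on few reads. It had 53 counts in the control library and 52 in the Pink1 siRNA library, or 3.78 and 3.71 CPM. The ratio was 0.981, but the counting interval was 0.656 to 1.47 and the widened interval, at 0.354 to 2.71, took in differences past 2-fold in both directions. A difference within these limits was not detectable at this depth.

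Neither sensor had a widened interval that left out 1, and the counting interval lay above 1 for Ireb2 and included 1 for Aco1. Aco1, the cytosolic aconitase that becomes iron regulatory protein 1 when it lacks its iron-sulphur cluster (chromosome 4, 40143265 to 40199009), had 390 and 426 counts, or 27.8 and 30.4 CPM. The ratio of 1.09 had counting bounds of 0.950 and 1.26 and a widened interval of 0.708 to 1.69. Ireb2, iron regulatory protein 2, which is degraded when iron is plentiful (chromosome 9, 54862658 to 54912534), had 656 and 787 counts, or 46.8 and 56.2 CPM. Its ratio of 1.20 was the highest of the 10, with a counting interval of 1.08 to 1.33 that lay above 1. The widened interval of 0.846 to 1.71 included 1, and 166 of the 583 genes in its twentieth, or 28.5%, had a ratio as far from 1. Control of this protein is largely through its decay, which transcript counts do not show.

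**Figure D4:**
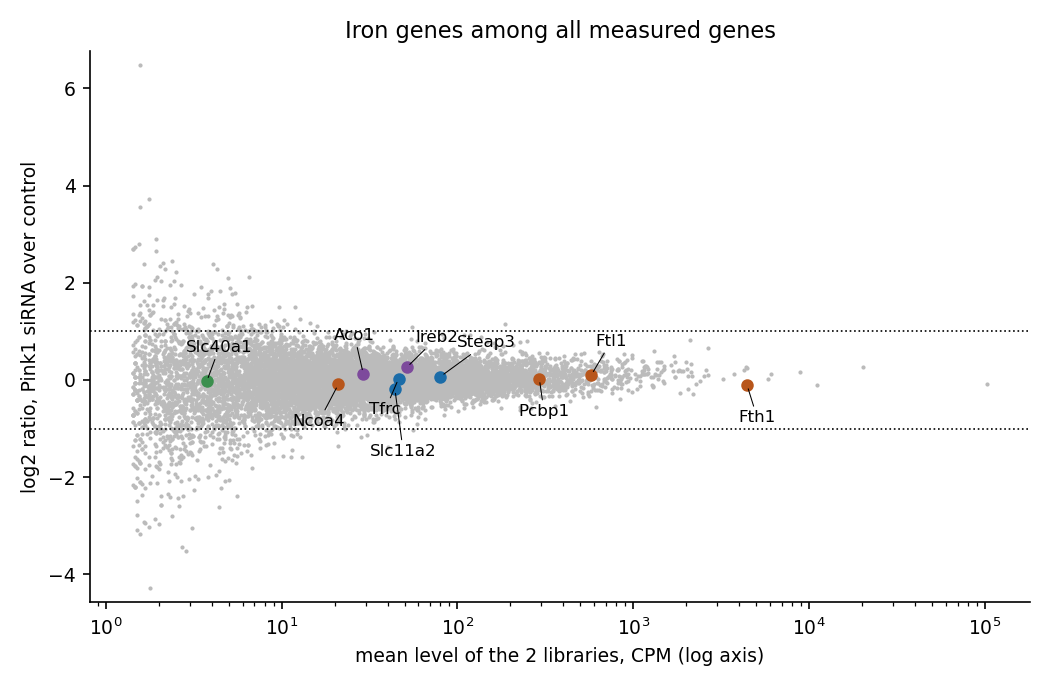
Log2 ratio of Pink1 siRNA to control siRNA against mean level in CPM (log axis) for the 11660 measured genes (grey) with the 10 iron genes in colour; dotted lines mark a 2-fold difference. All 10 iron genes lie between the dotted lines, and the spread of all genes is wider where the level is low, as at Slc40a1.

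Beyond the 10 genes, 7 lists of other iron genes held 104 genes in the tables, of which 90 were measured. Among them 1 was higher and 0 were lower by the rule, against 4.02% of all measured genes. Their median log2 ratio was 0.05, beside 0.00 over all measured genes. There were 54 ratios above 1 and 36 below, beside 5957 and 5703 over all measured genes. No list had a median as far as 0.25 from 0.

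In the list for endosomal uptake and ferritin handling, 16 of 20 genes were measured, none passed the rule and the median was 0.06. The largest log2 ratios were 0.92 for Exoc6, an exocyst subunit needed for transferrin cycling, from 31 and 59 counts, and 0.37 for the metal importer Slc39a14, from 224 and 289 counts. Both widened intervals included 1, at 0.623 to 6.59 and 0.781 to 2.15. Trf, transferrin itself, named for its role after its values were seen, had 14 and 9 counts and was below the count needed.

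In the list for iron export and the hepcidin axis, 14 of 22 genes were measured, none passed the rule and the median was -0.10. The ferroxidase Heph, which works with ferroportin, had 84 and 133 counts (log2 0.66, ratio between 0.740 and 3.52 by the widened interval), and the BMP signal transducer Smad1 had 330 and 242 (log2 -0.45, widened 0.445 to 1.20). Cp, Fbxl5 and Hamp were picked for their roles after their values were seen. The ferroxidase ceruloplasmin gene Cp had 3284 and 3826 counts (log2 0.22, widened 0.886 to 1.54) and overlaps Hps3 (226 and 211 counts). Fbxl5, the iron-sensing subunit of the ligase that degrades iron regulatory protein 2, had 727 and 598 counts, a log2 ratio of -0.28 and a widened interval of 0.569 to 1.19. The hepcidin gene Hamp had 0 counts in both libraries, which allows up to 0.214 CPM.

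Mitochondrial iron import and iron-sulphur cluster genes were all measured, 24 of 24. None passed the rule, and 17 ratios were above 1 and 7 below, beside 5957 and 5703 over all measured genes. The median was 0.16, beside 0.00, and the widened interval included 1 for all 24. The largest log2 ratios were 0.72 for the transporter Abcb8 (130 and 214 counts) and 0.57 for the co-chaperone Hscb (117 and 174 counts), with widened intervals of the ratio of 0.881 to 3.16 and 0.754 to 3.01. Abcb8 overlaps Cdk5, with 520 and 445 counts, so its reads are uncertain. In the cytosolic assembly list 9 of 9 were measured with a median of 0.05, and none passed the rule. The largest were Ndor1 at 0.37, which overlaps Tmem203 (102 and 99 counts), and Fam96a at 0.33 from 601 and 758 counts. Of 5 further chaperones 4 were measured, with a median of 0.18, led by Bola2 (0.33, 508 and 640 counts) and Pcbp4 (0.23), which overlaps Gpr62 (1841 and 2299 counts).

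Haem genes held the 1 gene of the lists that passed the rule. In the synthesis list 10 of 11 were measured, none passed and the median was 0.06. Its largest values were Uros at -0.60 (73 and 48 counts, overlapping Bccip with 418 and 417) and Alad, which joins the first building blocks of the ring, at 0.36 (414 and 530 counts, widened interval 0.845 to 1.95). In the breakdown and transport list all 13 were measured, with a median of 0.10. Mfsd7c, also named Flvcr2, was higher by the rule, but from 12 and 32 counts, and its widened interval of 0.477 to 25.1 included 1. Abcg2, which exports porphyrins among other molecules, had 602 and 400 counts and a log2 ratio of -0.59. Its widened interval of 0.438 to 0.998 just left out 1. It was the 1 gene of the 90 for which this held, against 4.10% of measured genes, so that count does not set the lists apart. Hmox1, the haem oxygenase that frees iron from haem, was picked for its role after its values were seen. It had 314 and 466 counts, a log2 ratio of 0.57 and a widened interval of 0.947 to 2.35.

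**Figure D5:**
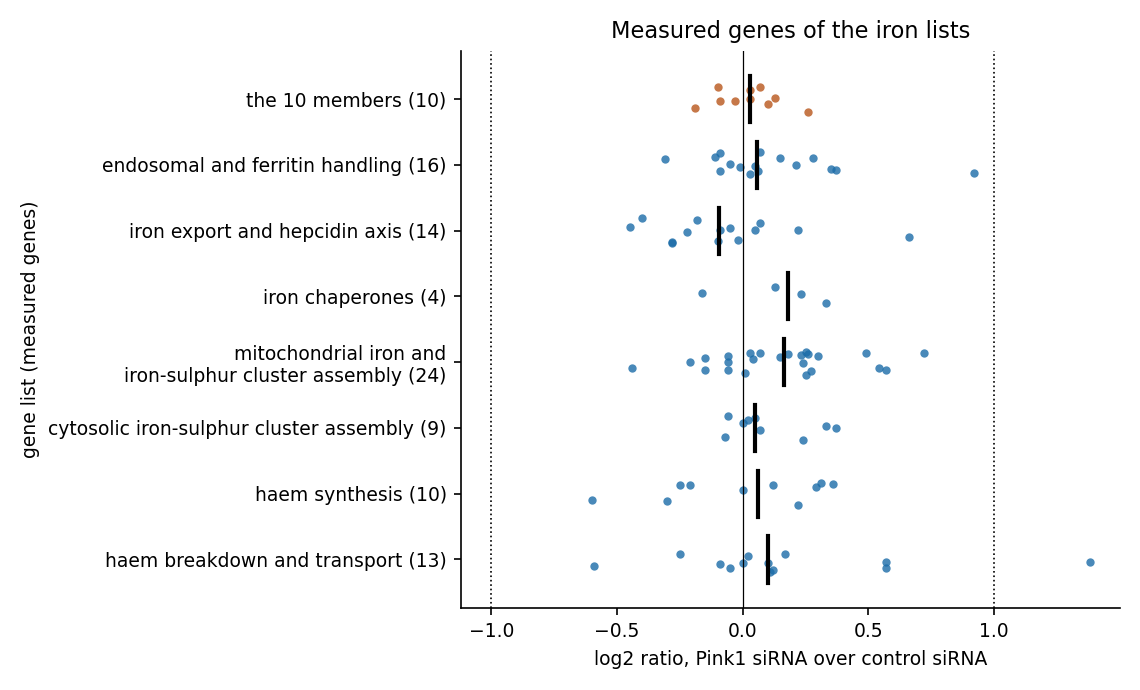
Log2 ratio of Pink1 siRNA to control siRNA for the 10 iron genes (orange) and the measured genes of 7 other iron lists (blue), with the number measured in brackets, the median as a black bar and dotted lines at a 2-fold difference. The 10 genes span -0.19 to 0.26, and the 1 point past the upper dotted line is Mfsd7c at 1.38.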

How the data were processed

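Libraries were prepared from Trizol-extracted total RNA by a QuantSeq protocol, which reads transcript 3′ ends, per the labels' protocols. The tools named are bedtools, Bowtie2 and bcl2fastq (2.20.0.422), and the build is mm10, per the submitters' processing notes. Annotation, strand setting and treatment of multiply mapped reads are not given in the sources used here. Deposited values are raw read counts per symbol, 1 table of 23282 rows per library.

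Counts were scaled by TMM effective library sizes (edgeR 4.0.16, R 4.3.3). Ratios are of scaled counts with 0.5 added, and intervals are exact conditional Clopper-Pearson intervals (SciPy 1.17.1). Intervals of a quotient of 2 genes are log-normal approximations. Widening used 20 bins of mean level. The rule was tried on simulated counts that held counting error only. That simulation lacks the excess spread between these libraries, so it does not show how the rule performs on them. Gene coordinates are from RefSeq (GRCm38.p6), which also matched 4 listed synonyms. Site sequences are from GENCODE M21, and near copies were sought with blastn 2.17.0. Where 2 genes overlap, each may hold the other's reads.

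Named genes were the 10 members, Pcbp2 as the relative of Pcbp1, marker genes, genes of the iron lists past the rule and the 2 largest log2 ratios of each such list, with exceptions marked. Members and lists were chosen with earlier results of these data known. With 2 libraries, likeness of pattern between genes is not defined.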

Additional observations from a re-analysis of the deposited data

How the results depend on the processing

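With 1 library per group, no library could be left out. No paired analysis was possible because each group has a single library. The count of iron genes past the rule was 0 under each alternative. For the scaling these were total counts, DESeq2 1.42.0 size factors, upper-quartile scaling and omission of the ribosomal precursor row Rn45s. For the counts they were 5 added before the log, a summed count of 200 and no filter. For the rule they were thresholds of 1.5 and 4 on the ratio, no interval and the widened interval. At a summed count of 200, Slc40a1 (53 and 52 counts) was not measured, so that setting did not cover it. Across scalings and the added count, no log2 ratio of the 10 genes changed by more than 0.05. With total counts the ratios of Tfrc (-0.02) and Pcbp1 (-0.01) took the other side of 1, Fth1 went to -0.14, and the median of the 10 was -0.01. The row of Fthl17, the 1 other symbol in the tables that starts with Fth or Ftl, held 0 counts, so summing it with Fth1 was no test.

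A count of 0 cannot fall under a stricter setting, so those settings say nothing about the 10 genes. Over all genes, against 190 higher and 279 lower (469 in all), there were 597 and 853 (1450) with no filter, 26 and 40 (66) at a summed count of 200, 633 and 774 (1407) at a ratio of 1.5, 23 and 44 (67) at a ratio of 4, and 48 and 81 (129) with the widened interval. The cause was not tested beyond the construction of each setting. Depth limits Slc40a1 most, with 53 and 52 counts.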

Other observations

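Other genes carry the same hairpin letters in an annotated UTR. In 5′ UTRs 23 of 21877 protein-coding genes did, and 18 of them were measured, Fth1, Ftl1 and Slc40a1 included. None of the 18 passed the rule of size, against 4.02% of all measured genes, so the count does not set them apart. Their log2 ratios ran from -0.23 to 0.33, and the median was 0.03. The erythroid haem synthesis gene Alas2, known for this element and named for it after its values were seen, was among them. It had 72 and 62 counts and overlaps Apex2 (140 and 114 counts), so its reads are uncertain. In 3′ UTRs 100 genes had a match and 69 were measured, Tfrc included, with a median of 0.01 and a range of -1.11 to 0.65. Past the rule was 1 of the 69, beside the same 4.02%, namely Hivep3, lower at a ratio of 0.464 from 145 and 67 counts and named after its values were seen. A match says that these letters are in the annotated transcript and nothing about binding.

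Of the listed genes, some were at 0 and are named after their values were seen. Glrx3, listed as an iron chaperone, had 0 counts in both libraries. Hfe2, Bmp2 and Bmp6 were also at 0 in both. The annotation behind the rows and the treatment of multiply mapped reads are not given, so a count of 0 does not show that a gene was not transcribed.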
